A study of Mus musculus with 18 samples.

Results

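The 3 genes of the Nr4a family, Nr4a1 (Nur77), Nr4a2 (Nurr1) and Nr4a3 (Nor1), were followed through mouse striatum after cocaine. All probe sets annotated to exactly 1 of these symbols were taken, which gave 3 of the 12394 genes and 5 of the 22690 probe sets on the array: 1416505_at for Nr4a1, 1450750_a_at and 1450749_a_at for Nr4a2, and 1421079_at and 1421080_at for Nr4a3. No probe set carried a member symbol together with another symbol. Of the 5, 2 passed the filter on dim probe sets (above log2 4 in at least 3 arrays), namely the Nr4a1 probe set and 1450750_a_at of Nr4a2.

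Nr4a proteins are nuclear receptors for which no classical hormone ligand is established, so that their activity follows largely from how much of them a cell makes. They bind DNA as monomers at an extended receptor site called the NBRE, as dimers, or, for Nr4a1 and Nr4a2, with a retinoid X receptor. In neurons their genes belong to the immediate early genes, which calcium and cAMP signals switch on through kinases, the transcription factor CREB and MEF2 factors. In striatal spiny neurons Nr4a1 is known to respond to dopamine drugs, while Nr4a2 is best known for the development and upkeep of midbrain dopamine neurons and is also found in the claustrum and deep cortex.

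The samples were striatum with the nucleus accumbens from littermate mice aged 10 to 20 weeks, 1 Affymetrix array per animal. There were 6 mutant mice given 25 mg/kg cocaine, 3 mutant mice given saline, 6 control mice given 25 mg/kg cocaine and 3 control mice given saline, all by intraperitoneal injection and killed after 1 hour. The study is about loss of CaMKIV, a calcium-activated kinase encoded by Camk4 that phosphorylates CREB. Neither the mutant allele nor the cells it affects is stated in the labels. Sample titles set the groups, since the separate description lines named the title's genotype and treatment in 0 of 18 samples, and titles number 12 animals in Arabic numerals (3 per group) and 6, all cocaine-treated, in Roman numerals (3 per genotype).

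Levels are log2 GCRMA expression values, and differences are on the same log2 scale. Array medians lay between 4.98 and 5.19. Mutant cocaine replicate 5 stood apart, its correlations with the other arrays averaging 0.966 (0.976 to 0.990 for the rest), and with an actin 3' minus 5' difference, which rises as RNA shortens, of 3.59. The same difference ran from 1.57 to 2.55 in the other 17 arrays. Camk4 itself had the 1426167_a_at values 6.85 to 7.69 in mutant cocaine and 7.14 to 7.47 in mutant saline arrays, against 7.52 to 7.76 in control cocaine and 7.59 to 7.72 in control saline arrays. The averaged genotype difference of this probe set was -0.37 ± 0.09 (SE, limma adjusted p = 0.611), and that of 1421941_at was -0.49 ± 0.27 (limma adjusted p = 0.679). Where these probe sets lie relative to the mutation is not stated in the labels. Of 12 spiny neuron markers 8 passed the filter, with Ppp1r1b (DARPP-32) at 13.3 to 13.4 and the enkephalin gene Penk at 13.8 to 14.0 over all arrays. The tissue is a mixture of cells, so fewer cells of a type and less RNA per cell cannot be told apart.

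A promoter window of each gene is shown because CREB, a substrate of CaMKIV, binds the cAMP response element. In the RefSeq annotation of GRCm38.p6, Nr4a1 lies on chromosome 15 (chr15:101253902-101274795), Nr4a2 on chromosome 2 (chr2:57106830-57124003) and Nr4a3 on chromosome 4 (chr4:48045078-48086447). Each promoter window runs from 250 bases before to 50 bases after the transcript start that the RefSeq table uses, 5' to 3' on the gene's strand, at chr15:101266596-101266895 (plus strand) for Nr4a1, chr2:57123954-57124253 (minus strand) for Nr4a2 and chr4:48045055-48045354 (plus strand) for Nr4a3. For Nr4a1 and Nr4a3 this start lies inside the gene interval given above, and for Nr4a2 it is the end of the interval. Capitals mark TGACG, the core of the cAMP response element, or CGTCA, the same letters read on the other strand.
Nr4a1: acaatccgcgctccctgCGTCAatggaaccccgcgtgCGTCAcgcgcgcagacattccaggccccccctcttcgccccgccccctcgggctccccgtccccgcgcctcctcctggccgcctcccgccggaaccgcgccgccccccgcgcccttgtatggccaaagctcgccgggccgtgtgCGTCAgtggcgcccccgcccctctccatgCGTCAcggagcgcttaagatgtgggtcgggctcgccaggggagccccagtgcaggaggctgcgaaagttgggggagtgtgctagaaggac
Nr4a2: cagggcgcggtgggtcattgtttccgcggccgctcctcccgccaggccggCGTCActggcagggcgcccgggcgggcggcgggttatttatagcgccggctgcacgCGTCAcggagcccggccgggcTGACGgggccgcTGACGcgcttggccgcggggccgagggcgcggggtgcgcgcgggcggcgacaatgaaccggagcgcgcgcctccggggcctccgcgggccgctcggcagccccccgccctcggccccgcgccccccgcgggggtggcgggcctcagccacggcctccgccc
Nr4a3: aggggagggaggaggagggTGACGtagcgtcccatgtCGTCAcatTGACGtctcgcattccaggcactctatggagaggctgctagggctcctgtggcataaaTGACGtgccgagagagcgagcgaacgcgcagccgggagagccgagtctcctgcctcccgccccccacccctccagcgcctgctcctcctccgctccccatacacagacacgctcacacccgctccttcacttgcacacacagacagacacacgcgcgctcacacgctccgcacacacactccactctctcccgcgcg
All 3 windows held 4 such cores, none of which overlapped another. Of 32851 mouse promoter windows of the same length in the RefSeq table, 20.8% held at least 1 core and 0.231% at least 4. In Nr4a1 all 4 read CGTCA, at -233, -213, -69 and -40 bases from the start. In Nr4a2 they began at -200, -144, -123 and -111, and in Nr4a3 at -231, -213, -205 and -147. The full element TGACGTCA occurred in 0 of the 3 windows and in 1.79% of all windows. The NBRE, AAAGGTCA on either strand, also occurred in 0 of the 3 and in 1.51% of all windows. Such matches describe letters in these windows and not binding.

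Nr4a1 was higher in every cocaine array than in any saline array, in both genotypes, and was the member with a clear signal in all 18 arrays. Mutant cocaine mice had 10.01, 10.97 and 11.41 in the Arabic-numbered and 11.78, 12.09 and 12.04 in the Roman-numbered animals. Mutant saline mice had 8.71, 8.80 and 9.34. Control cocaine mice had 11.14, 11.72 and 12.14 in the Arabic-numbered and 12.07, 11.77 and 11.91 in the Roman-numbered animals, against 9.79, 9.29 and 8.99 in control saline mice. The lowest cocaine array, a mutant at 10.01, thus lay just above the highest saline array, a control at 9.79. Within each genotype the gap was wider, the lowest cocaine array being at 10.01 and the highest saline array at 9.34 in mutant mice, and 11.14 and 9.79 in control mice.

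**Figure D1:**
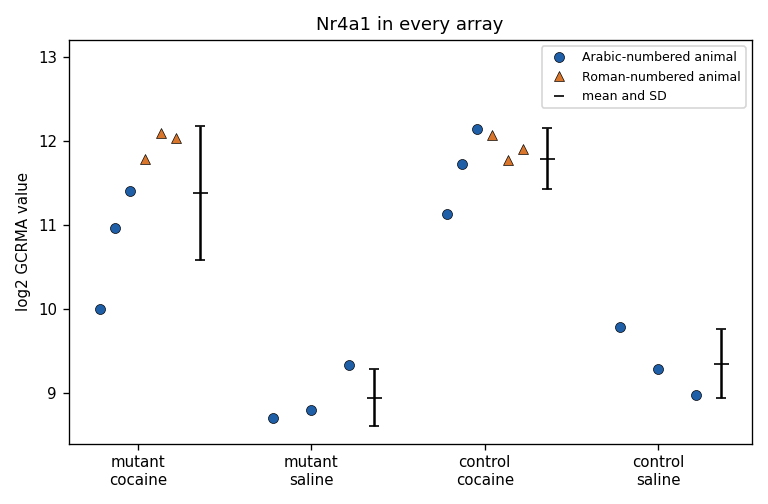
Log2 GCRMA value of Nr4a1 (1416505_at) in each of the 18 arrays by group, with circles for Arabic-numbered and triangles for Roman-numbered animals and bars for the mean and SD of the group. All cocaine arrays lie at or above 10.01 and all saline arrays at or below 9.79, and the Roman-numbered arrays of both genotypes sit together between 11.77 and 12.09.

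Averaged over genotypes, Nr4a1 rose by 2.08 ± 0.24 after cocaine (log2, SE), a 4.23-fold difference with a 95% interval of 1.57 to 2.60 on the log2 scale. Its adjusted p in limma was 5.53e-04. Of the 2 Nr4a probe sets tested, 1 passed, while 0.221% of all 12674 probe sets passed in this comparison. Nr4a1 ranked 12 by the size of its rise and 5 by its p. The p-values measure the spread between these animals' arrays. Since no saline animal carries a Roman number, the averaged value rests on the 12 Arabic-numbered arrays. In those arrays, exact permutation of the treatment labels within genotype gave a difference of 2.08 and a two-sided p of 0.005, the smallest that its 400 relabellings allow. Over the 40 exact tests run on the 5 probe sets, this p adjusted to 0.20. Without mutant cocaine replicate 5, the array that stood apart, the averaged rise was 2.08 (limma adjusted p = 4.43e-04), that in mutant mice 2.04 (0.0177) and that in control mice 2.12 (0.00745). That array is Roman-numbered, so leaving it out could move the averaged p but not the averaged rise. The share of all probe sets called depends on that array, being 2.86% (362 probe sets, against 28) without it, and being 3.39% when only Arabic-numbered animals were fitted.

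In mutant mice the rise was 2.08 ± 0.32 (SE, limma adjusted p = 0.0271), and 0.0473% of all probe sets, 6 in number, passed. In control mice it was also 2.08 ± 0.32 (limma adjusted p = 0.0118), where 0.11%, 14 in number, passed. When each array was left out in turn, these numbers ran from 0 to 26 in mutant and from 0 to 28 in control mice, both highest without mutant cocaine replicate 5. In mutant mice the number was 21 without cocaine replicate 1 and 0 without cocaine replicate 2 or 3 or saline replicate 2 or 3. In control mice it was 0 without cocaine replicate 2 or saline replicate 3 and 1 without saline replicate 2. The fit gave both genotypes 1 common term for the Roman numbering, and the numbering moved with Nr4a1 unequally in the 2 genotypes. Roman-numbered mutant cocaine arrays averaged 12.0 ± 0.17, against 10.8 ± 0.72 in the Arabic-numbered ones, whereas control cocaine arrays averaged 11.9 ± 0.15 and 11.7 ± 0.51 in these series (SD, n = 3 each). The fitted Roman minus Arabic difference over both genotypes was 0.71 ± 0.24 (SE, limma adjusted p = 0.0901). The actin 3' minus 5' difference moved with the numbering too, at 1.57 to 1.91 in 5 of the 6 Roman-numbered arrays and 3.59 in mutant cocaine replicate 5, against 1.89 to 2.55 in the 12 Arabic-numbered arrays. Its part in the series difference was not tested.

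With the Arabic-numbered arrays alone, cocaine minus saline was 1.85 ± 0.34 in mutant mice (SE, limma adjusted p = 0.0987) and 2.31 ± 0.34 in control mice (limma adjusted p = 0.0183). Only the difference in control mice thus passed in the series that holds both treatments. An exact permutation test within 1 genotype, 3 cocaine against 3 saline arrays, gave p = 0.10 in each genotype, the smallest it allows. The mutant call was also lost, at differences between 1.95 and 2.27 (limma adjusted p 0.0511 to 0.208), without any 1 of mutant cocaine replicates 2, 3 and 6, mutant saline replicates 1, 2 and 3 and control cocaine replicates 2, 4 and 6. In control mice the call was lost at differences between 1.90 and 2.05 (limma adjusted p 0.0598 to 0.119) when cocaine replicate 2, saline replicate 2 or saline replicate 3 was left out. With blocks of consecutive animal numbers as a term, neither genotype's difference passed (limma adjusted p = 0.127 in mutant and 0.0774 in control mice).

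The response to cocaine was not shown to differ between genotypes, but the interval is wide. The mutant minus control response was -0.00 ± 0.42 over all arrays (SE, 95% interval -0.90 to 0.89, limma adjusted p = 1.00). In the Arabic-numbered arrays it was -0.46 ± 0.49, with a 95% interval of -1.52 to 0.59. Over all 12674 probe sets 0% passed for this interaction in limma, and an ordinary linear model also called 0. In limma 340 had an unadjusted p under 0.05, fewer than the share of 0.05 expected with no difference. Animals 1 to 4 come 1 from each group, as do 5 to 8 and 9 to 12. Among animals 1 to 4, Nr4a1 was higher after cocaine by 1.21 in the mutant and by 2.44 in the control pair. For animals 5 to 8 these differences were 1.63 and 3.16, and for animals 9 to 12 the order turned, with 2.70 in the mutant and 1.35 in the control pair.

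Between genotypes at the same treatment, Nr4a1 did not pass either. After saline the mean was 8.95 ± 0.34 in mutant and 9.35 ± 0.41 in control mice (SD, n = 3 each), a difference of -0.41 ± 0.34 (SE, limma adjusted p = 1.00), and the groups overlapped. After cocaine the mean was 11.4 ± 0.79 in mutant and 11.8 ± 0.36 in control mice (SD, n = 6 each), a difference of -0.41 ± 0.24 (SE, limma adjusted p = 0.469). Exact permutation within series gave p = 0.205 for these 6 against 6 arrays. The difference after cocaine was -0.87 in the Arabic-numbered animals (exact permutation p = 0.20, n = 3 each), and 0.05 in the Roman-numbered ones (exact permutation p = 0.70, n = 3 each). By block of neighbouring numbers it was -1.71, -1.17 and 0.27 in the Arabic-numbered and -0.29, 0.32 and 0.13 in the Roman-numbered animals. Whether it varies with the series was not tested. Without mutant cocaine replicate 5 the difference over both series was -0.49 ± 0.25 (SE, limma adjusted p = 0.674). Averaged over treatments the difference was -0.41 ± 0.21 (SE, limma adjusted p = 0.679), and 0% of probe sets passed in any of the 3 genotype comparisons, with 350, 1470 and 904 at an unadjusted p under 0.05 after saline, after cocaine and averaged. An ordinary linear model called 0 in each of them. With no difference, a share of 0.05 of the probe sets tested is expected under that p, which 350 falls below and 1470 and 904 exceed. Exact permutation within treatment and series over all 18 arrays gave -0.41 (9 mutant against 9 control arrays, exact p = 0.0703). That p lay between 0.0408 and 0.0498 without mutant cocaine replicate 3, mutant saline replicate 3, control cocaine replicate 5 or control saline replicate 3.

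**Figure D2:**
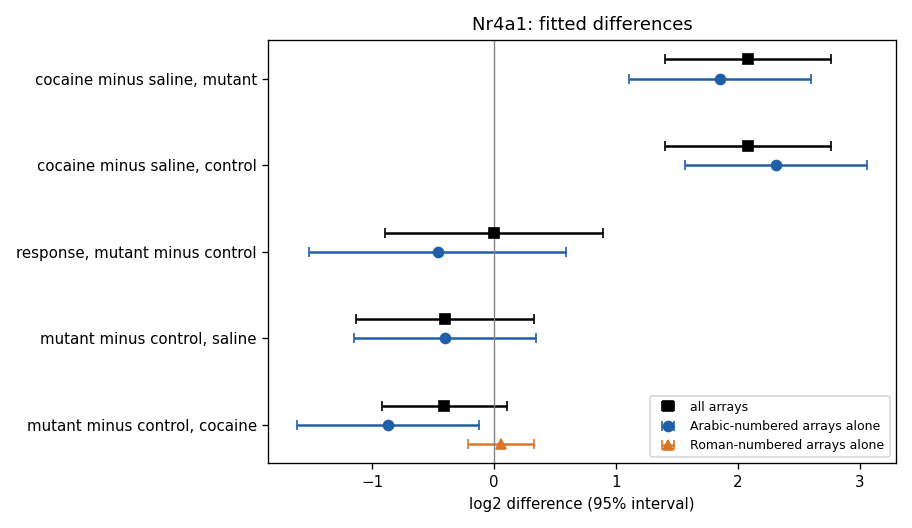
Fitted log2 differences of Nr4a1 with 95% intervals from limma, for all 18 arrays (squares), the 12 Arabic-numbered arrays (circles) and the 6 Roman-numbered arrays (triangle, mutant minus control after cocaine only). Both cocaine responses lie clear of 0, at 2.08 over all arrays, and the genotype difference after cocaine is -0.87 in the Arabic-numbered and 0.05 in the Roman-numbered arrays.

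The genes whose values followed Nr4a1 most closely were other immediate early genes. Over the 18 arrays, which treatment splits into 2 clusters, the 5 genes of highest Pearson correlation among 11749 probe sets were Egr2, Tiparp, Arc, Fos and Junb. Within the 12 cocaine arrays they were Egr2 (r = 0.972), Fos (0.964), Tiparp (0.963), Junb (0.962) and Gadd45b (0.961), with Spearman correlations from 0.888 to 0.958. Being picked as the highest of all, these correlations carry no test. Without the 2 cocaine arrays farthest from the median of Nr4a1 they ran from 0.842 to 0.925. After the group terms and the common numbering term were removed, Nr4a1 residuals over the same 12 arrays correlated with those of Junb at 0.985. The other genes gave 0.977 (Fos), 0.948 (Gadd45b), 0.947 (Egr2) and 0.932 (Tiparp). A shift with numbering that differs between the genotypes stays in these residuals. All genes of 1 array share its RNA sample, its hybridisation and the common normalisation.

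Array by array, mutant cocaine replicate 1 was the lowest cocaine array for Nr4a1 (10.01), Fos (7.39) and Junb (8.44). Control cocaine replicate 3 was the highest for Nr4a1 (12.14), Fos (11.74) and Junb (11.45). These genes were picked for following Nr4a1 over the same arrays, so their split by numbering is a description and no separate evidence. For Egr2 (1427683_at), a zinc finger factor, mutant minus control after cocaine was -1.58 in the Arabic-numbered and 0.18 in the Roman-numbered arrays. It was -1.43 and 0.29 for the AP-1 subunit Fos, -1.10 and 0.06 for Junb, and -0.89 and 0.02 for the stress-inducible gene Gadd45b. These are differences of means of 3 arrays each and were not tested as a set.

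**Figure D3:**
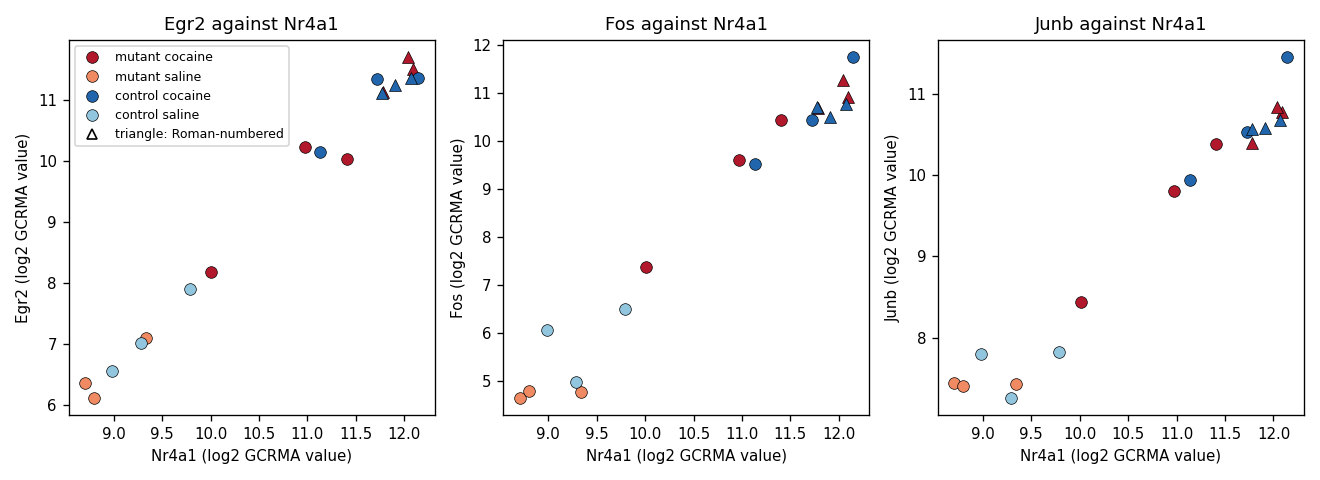
Log2 GCRMA values of Egr2 (1427682_a_at), Fos and Junb (vertical axes) against Nr4a1 (horizontal axis), 1 point per array, coloured by group, with triangles for Roman-numbered animals. Mutant cocaine replicate 1, at 10.01 for Nr4a1, lies between the saline and the other cocaine arrays in all 3 panels.

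For Nr4a2 the 2 probe sets lay near the floor of the array, and no cocaine response was detectable. In an array, from 26.5 to 49.3% of the probe sets lay below 1450750_a_at and from 34.4 to 41.1% below 1450749_a_at. With 1450750_a_at, mutant cocaine mice had 2.99, 4.97, 2.91, 4.58, 4.80 and 2.40, and mutant saline mice 3.66, 2.90 and 3.90. Control cocaine mice had 3.55, 3.01, 3.29, 2.94, 2.93 and 3.27, and control saline mice 4.93, 2.94 and 2.92. Of the 18 arrays 4 exceeded 4, namely 3 of the 6 mutant cocaine arrays and 1 of the 3 control saline arrays. No mutant saline or control cocaine array did, and all 4 groups overlapped. Background correction compresses signals this low, so a change in the transcript itself can be larger than the change in these values.

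The averaged difference for this Nr4a2 probe set, cocaine minus saline, was -0.09 ± 0.46 (SE, 95% interval -1.06 to 0.88, limma adjusted p = 0.977). It was 0.27 ± 0.60 in mutant mice (limma adjusted p = 0.909) and -0.45 ± 0.60 in control mice (limma adjusted p = 1.00). Mutant minus control was 0.61 ± 0.46 after cocaine (limma adjusted p = 0.536, exact permutation p = 0.21 for 6 against 6 arrays) and -0.11 ± 0.64 after saline. Without mutant cocaine replicate 5, one of the high arrays, the difference after cocaine was 0.38 ± 0.45 (SE, limma adjusted p = 0.859). The averaged difference turned to 0.24 without control saline replicate 1 and was -0.36 without mutant cocaine replicate 2. The other Nr4a2 probe set, 1450749_a_at, stayed between 2.64 and 3.15 in all arrays and did not pass the filter. In a fit without the filter its averaged difference was -0.02 ± 0.08 (SE, limma adjusted p = 0.933).

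Nr4a3 gave no usable level. Both of its probe sets stood at the bottom of the scale in every array, 1421079_at between 1.99 and 2.05 and 1421080_at between 1.92 and 1.98, with from 4.80 to 8.39% of the probe sets of an array below them. For 1421079_at the averaged difference, cocaine minus saline, was 0.0059 ± 0.0071 in a fit without the filter (SE, limma adjusted p = 0.866), and for 1421080_at it was 0.0047 ± 0.0075. Values this close to the floor set no limit on what the transcript did.

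**Figure D4:**
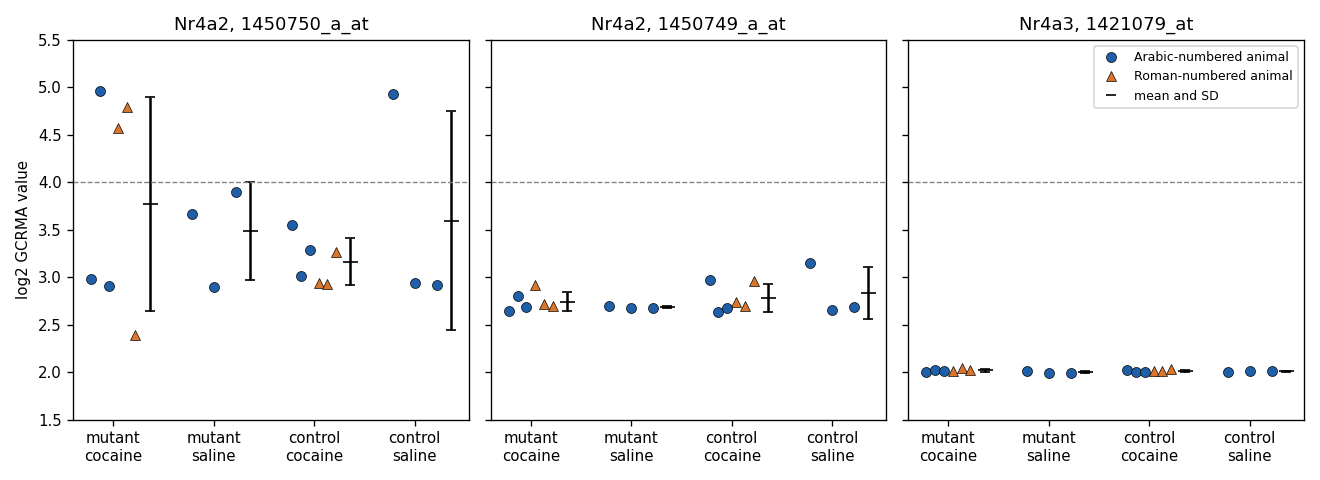
Log2 GCRMA values of both Nr4a2 probe sets and of the Nr4a3 probe set 1421079_at in each array by group, on 1 vertical scale, with circles for Arabic-numbered and triangles for Roman-numbered animals and bars for mean and SD. The dashed line is the filter at 4, which 4 arrays exceed for 1450750_a_at and 0 arrays exceed for the other 2 probe sets.

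The members' responses cannot be ranked from these signals. Cocaine minus saline over the 12 Arabic-numbered arrays was 2.08 for Nr4a1, -0.09 for Nr4a2 and 0.0059 for Nr4a3, each by its brightest probe set. Since Nr4a2 lay near and Nr4a3 at the floor, the differences of 2.17 and 2.07 from Nr4a1 restate the rise of Nr4a1 and are given with no test.

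The genes most like Nr4a2 over the arrays were other ones than those most like Nr4a1. Over 18 arrays, the highest Pearson correlations with 1450750_a_at were those of Cck, which encodes the neuropeptide cholecystokinin (r = 0.885, Spearman 0.858), the serine protease gene Prss12 (0.867, Spearman 0.699) and Tbr1, a transcription factor of glutamatergic cortical neurons (0.861, Spearman 0.715). Olfm1 and Mfsd4a came next, at 0.752 and 0.723. Prss12 and Tbr1 were dim themselves, with means of 3.34 and 3.64 over the 18 arrays. Prss12 exceeded 4 only in mutant cocaine replicates 2 (4.15) and 5 (4.80) and control saline replicate 1 (4.05), and so passed the filter through these arrays alone. In each of them Nr4a2 exceeded 4 too. Having been picked as the highest of 11749 probe sets, these values carry no test. Without the 2 arrays farthest from the median of Nr4a2, the first 3 stood at 0.856, 0.804 and 0.773. Within the 12 cocaine arrays Tbr1 (0.919), Cck (0.885) and Prss12 (0.880) were again highest, followed by Plscr3 (0.842) and Bnip1 (0.829).

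The same arrays were high for these genes. Control saline replicate 1, with Nr4a2 at 4.93, had Cck at 9.26 and Tbr1 at 5.11, the highest value of both over the 18 arrays. Mutant cocaine replicates 2, 5 and 4, with Nr4a2 at 4.97, 4.80 and 4.58, had Tbr1 at 4.48, 4.39 and 4.21 and Cck at 9.07, 9.08 and 9.09. Mutant cocaine replicate 6, the lowest for Nr4a2 at 2.40, was also the lowest for Cck, at 7.20. Of the 10 markers of cortical glutamatergic neurons 3 passed the filter, Tbr1, Mef2c (r = 0.226 with Nr4a2) and Lamp5 (-0.212). Of the 4 on the array that did not pass, Neurod6 (2.74 to 4.31) had r = 0.831, Neurod2 0.332, Cux2 0.193 and Rorb -0.241. The summed linear level of the 3 markers, chiefly Mef2c and Lamp5, ran from 3617 to 3966 in mutant cocaine and 3690 to 4195 in mutant saline arrays, and from 3809 to 4002 in control cocaine and 3620 to 4209 in control saline arrays. Of 10 markers of deep cortex and claustrum 8 passed, with correlations from -0.444 to 0.200, and 2 of 8 midbrain dopamine markers passed, Th (5.32 to 5.60, r = -0.0030) and Ddc (7.08 to 7.80, r = -0.035). Their summed linear level ran from 209 to 247 in mutant cocaine and 220.3 to 267 in mutant saline arrays, and from 198 to 230.5 in control cocaine and 179 to 234 in control saline arrays. The dopamine transporter gene Slc6a3 (2.20 to 2.27) and Pitx3 (1.64 to 1.66) were near the floor throughout. What share cortical cells have in the Nr4a2 values was not tested.

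**Figure D5:**
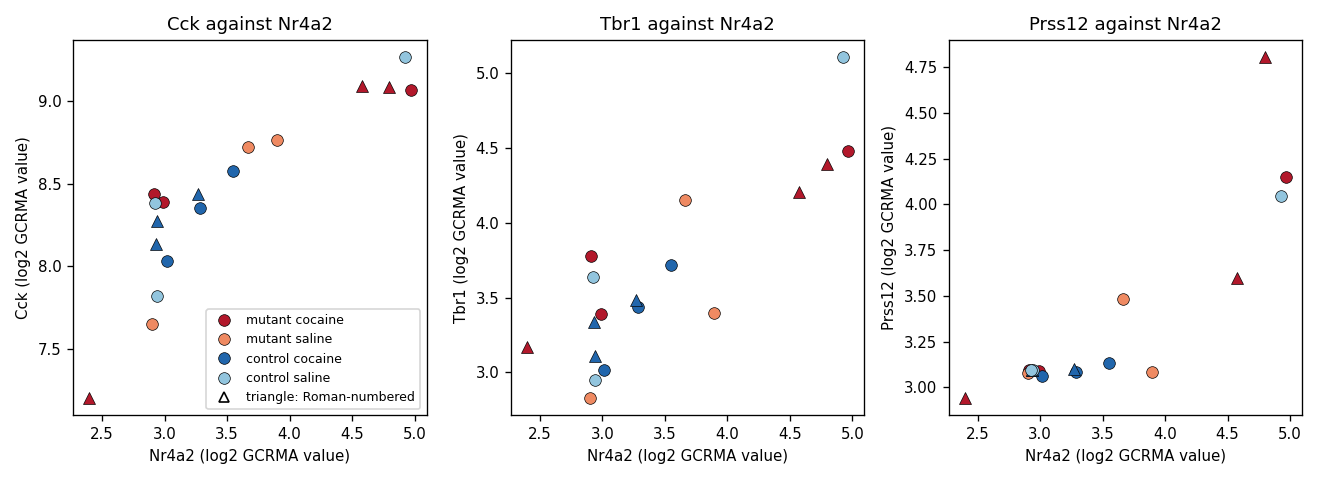
Log2 GCRMA values of Cck, Tbr1 and Prss12 (vertical axes) against Nr4a2 (1450750_a_at, horizontal axis), 1 point per array, coloured by group, with triangles for Roman-numbered animals. The 4 arrays above 4 for Nr4a2 come from the mutant cocaine and control saline groups and are the highest 4 in all 3 panels.

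Counts in the following lists are to be read against the 0.221% of all probe sets that passed after cocaine averaged over genotypes, all of them higher, 0.0473% in mutant mice, 0.11% in control mice and 0% in the other 4 comparisons, so that 0 of a short list is no more than the background gives. Of 17 receptor partners and coregulators of the family 10 passed the filter, and 0 rose and 0 fell in any of the 7 comparisons of treatment or genotype by limma. Their median difference was -0.03, against 0.00 over all probe sets. The brightest were the retinoid X receptor Rxrg, a heterodimer partner (-0.03 ± 0.09), and the coactivator Ncoa1 (0.02 ± 0.06, SE). Among the 14 measured of 45 other nuclear receptors 0 passed in any comparison, with the thyroid hormone receptor gene Thra at -0.03 ± 0.07 and the clock repressor Nr1d2 at -0.05 ± 0.07 (SE, limma adjusted p of 0.950 and 0.910). Of the nuclear receptors listed and measured, Nr4a1 was the 1 that passed after cocaine.

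The lists upstream and downstream of the family gave the same count of 0. In the calcium, CREB and MEF2 pathway 19 of 30 genes were measured and 0 passed in any comparison, with a median of -0.04 after cocaine and the calcineurin subunits Ppp3ca and Ppp3r1 at -0.08 ± 0.03 and 0.00 ± 0.06 (SE). Of 16 genes known as Nr4a targets, mostly from midbrain, pituitary or metabolic tissue, 6 were measured and 0 passed in any comparison, with a median of 0.07. The retinoic acid enzyme Aldh1a1 was at 0.25 ± 0.15 and the semaphorin receptor Nrp1 at 0.07 ± 0.12 (SE). Of 11 measured other immediate early transcription factors, from a list of 19, 6 rose and 0 fell after cocaine, with a median of 1.36, where 0.221% of all probe sets rose and 0% fell. Fos (4.55 ± 0.48), Egr2 (3.46 ± 0.39), Fosb (3.01 ± 0.45) and Junb (2.57 ± 0.31) had larger log2 differences than the 2.08 of Nr4a1 (SE). Their limma adjusted p, up to 0.0052, are for each gene's own cocaine difference, and none of these genes was tested against Nr4a1. Differences of separate probe sets are also compressed unequally. Without mutant cocaine replicate 5, where 2.86% of all probe sets passed, 8 of the 11 rose. In that setting 1 of the 19 upstream genes, the calcineurin subunit Ppp3cb, was lower after cocaine, and 0 of the partners, other nuclear receptors and targets passed.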

How the data were processed

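Striatal RNA of 18 mice was measured, 1 array per animal. The authors deposited log2 expression values made with GCRMA in R 2.4.1, per the submitters' processing notes, which give no settings. GCRMA corrects background by probe sequence, equalises array distributions and compresses dim probe sets. Arrays have no counting depth, and their number limits the precision. Symbols came from the platform annotation and promoters from RefSeq (GRCm38.p6). The 64 control probe sets were left out, and probe sets above log2 4 in at least 3 arrays were kept (12674). Limma 3.58.1 in R 4.3.3 fitted group and numbering series per probe set with a variance trend, 13 residual degrees of freedom, two-sided moderated tests and Benjamini-Hochberg adjustment over all probe sets, threshold 0.05. On simulated data for the averaged cocaine comparison over 12674 probe sets, 100% of 50 changes of log2 size 2 and 76% of 50 of size 0.5 were recovered. There were 8 false calls. The simulated noise was independent between probe sets and arrays, with no series difference and no array that stood apart. Other comparisons were not simulated. Exact permutations used Python 3.11.15 and numpy 2.4.6.

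Members and lists were chosen with earlier results of these data known. Named genes were the members, the 5 genes most correlated with each measured member, Camk4, and per list up to 4 passing or otherwise the 2 brightest genes. Neurod6, Neurod2, Cux2, Rorb, Th, Ddc, Slc6a3, Pitx3, Ppp3cb, Ppp1r1b, Penk, Mef2c and Lamp5 were named beside them and were chosen after their values were seen. Separate animals are named in the titles, but shared litters or days are not. List counts without mutant cocaine replicate 5 were added after seeing the data.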

Additional observations from a re-analysis of the deposited data

How the results depend on the processing

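Of 266 values recomputed under alternatives other than leaving out an array, 248 counted as unchanged. A difference had to keep its direction and its side of the threshold, and a count of called Nr4a probe sets had to stay the same. The counts repeat the calls of the differences, and no Nr4a2 difference passed in the main fit, so this total says little about the calls. The Nr4a1 rise kept its call under 7 of 13 alternatives in mutant and 11 of 13 in control mice. Not all of the 266 values could move. The averaged rise of Nr4a1 was bound to stay at 2.08 with the replicate block, with consecutive blocks and in the Arabic-numbered arrays alone. The alternative at adjusted p under 0.1 reused the main fit. The averaged rise of Nr4a1 passed under all 12 alternatives run for it (1.94 to 2.44) and without any 1 array (1.92 to 2.31). Leaving out a Roman-numbered array could not move that rise, only its p. In mutant mice the number of Nr4a probe sets called was 0, against 1 in the report, under 6 alternatives. These were the replicate block (Nr4a1 2.08, adjusted p = 0.0957), blocks of consecutive animal numbers (2.08, 0.127), the Arabic-numbered arrays alone (1.85, 0.0987), only the groups compared (1.85, 0.801), no filter (2.08, 0.0768) and an ordinary linear model (2.08, 0.168), each with limma's adjusted p except in the ordinary model, which has no moderation. In control mice it was 0 under consecutive blocks (2.08, 0.0774) and the ordinary model (2.08, 0.0741). The cause was not tested.

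The genotype difference of Nr4a1 after cocaine turned to 0.0539 in the Roman-numbered arrays alone, and its interaction to 0.012 with arrays centred on their medians. Pairing of the arrays by replicate number was not shown. Residuals of 21 same-numbered pairs correlated at 0.0045 on average (-0.39 to 0.34), 6 of them over 0.1. For the 21 pairs within a block of consecutive animal numbers the average was 0.036, with 8 over 0.1. Pairs of the same series in other blocks averaged -0.070, with 7 of 42 over 0.1. That is below the averages of 0.0045 and 0.036, and with pairs that range so widely these averages cannot exclude a pairing. The replicate block changed no other call.

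Leaving out 1 array at a time gave counts from 0 to 1 in mutant and in control mice, with Nr4a1 rises of 1.95 to 2.42 in mutant and 1.85 to 2.30 in control mice. The interaction of Nr4a1 ran from -0.22 to 0.22, and its exact-test genotype differences from -0.018 to 0.15 in Roman-numbered arrays and from -0.51 to -0.28 over all 18 arrays. For Nr4a2 the fitted differences ran from -0.36 to 0.24 (averaged), -0.13 to 0.55 (mutant), -0.79 to 0.22 (control) and -0.45 to 0.56 (genotype after saline). In the exact tests, whose leave-one-out runs were chosen after seeing the data, they ran from -0.43 to 0.24, -0.54 to 0.49, -0.65 to 0.35 and -0.45 to 0.56, and from -0.33 to 0.69 for the genotype difference in Arabic-numbered cocaine arrays. Nr4a2 minus Nr4a3 ran from -0.43 to 0.24. Signal near the floor limits what can be said of Nr4a2 and Nr4a3.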
